A study of Mus musculus with 10 samples.

Results

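The interferon-stimulated and innate sensing genes described here are 37 listed genes, chosen by name for induction by interferon or for a role in RNA sensing, innate sensing or antigen processing, with *Samd9l*, *Tlr2* and *Ube2l6* named among them. All 37 were among the 20325 genes of the table, and 22 of them were among the 13201 genes with enough reads to be tested. PolyA RNA-Seq was performed on 5 murine embryonic stem cell (mESC) lines kept in 2i and LIF medium without feeder cells, with 2 libraries per line. *Daxx*-/- mESCs of strain 129/SvEv lack the histone H3.3 chaperone DAXX, and *Daxx*-/-;WT mESCs are the same cells with a WT *Daxx* transgene. H3.3 KO mESCs of strain 129 x C57BL/6J lack histone H3.3, and they were also rescued with WT H3.3, the H3.3 KO;WT line, or with an H3.3 that has 2 substitutions near its C-terminal end (H3.3 KO;L126A-L130A, as the labels spell it), made so that it binds DAXX but is not stably placed in chromatin. The 3 rescued lines are pools of cells transduced with lentivirus that drives the transgene from the EF1 promoter, and they were kept under puromycin and collected within weeks. Whether the KO lines were given an empty vector and puromycin is not given in the sources used here, so the transgene cannot be told apart from transduction and selection in a comparison with a KO line. No treatment with interferon or another inducer of these genes is given for any line, but the 3 rescued lines had been exposed to lentivirus.

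Interferons are secreted when sensors such as RIG-I (*Ddx58*), MDA5 (*Ifih1*) or the Toll-like receptors meet foreign nucleic acids or microbial products. They bind receptors on the same or other cells and switch on interferon-stimulated genes through transcription factors, among them STAT2 and IRF9, that bind the interferon-stimulated response element (ISRE), and some of these genes also carry the gamma-activated site (GAS). The products hold back viral entry, replication and translation, attach the ubiquitin-like protein ISG15 to other proteins, and raise peptide presentation by MHC class I, while pluripotent cells are known for a weak interferon response and for constitutive expression of a small set of these genes.

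Library totals lay between 15463625 and 21396585 expected counts, the estimate RSEM makes of the reads of each gene, so that 3 counts, taken here as the limit of detection, were worth between 0.149 and 0.204 normalised CPM, the count scaled to a common library size. All 7 embryonic stem cell markers in the table were above 1 CPM in every library. *Daxx* was at 82.7 and 71.9 CPM in *Daxx*-/- mESCs and at 207 and 206 CPM with the transgene. *H3f3a*, a gene for H3.3, ranged from 2.84 to 10.9 CPM over the 6 H3.3-line libraries, whereas *H3f3b*, the other one, was at 508 and 719 CPM in H3.3 KO mESCs. The deleted parts of the genes are not given in the sources used here, so counts over a whole gene do not check the knockouts, and the lines are named by their labels. Of markers of other cells, *Ptprc*, *Lyz2*, *Csf1r* and *Emr1* of leukocytes stayed at or below 3 counts in every library, with *Csf1r* at 0. The other leukocyte markers in the table were read. *Cd68* lay between 4.83 and 25.3 CPM, *Itgam* between 0.509 and 4.08 CPM, and *Cd14* had at most 8 counts.

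Of the 37 genes, 7 were at or below the limit of detection in all 5 lines, a share close to that of all genes. *Isg15* (the ubiquitin-like modifier), *Usp18* (the protease that removes it), *Ifit1* and *Ifit3* (binders of foreign RNA), *Ifih1*, *Gbp3* (a GTPase that acts against pathogens) and *Psmb8* (an immunoproteasome subunit) had at most 3 counts in each of the 10 libraries. These 7 genes are 18.9% of the list, and 4675 of the 20325 genes in the table (23.001%) were as low. The share that could be tested was 59.5% of the list and 64.9% of the table. A further 8 genes rose above 3 counts somewhere but were too low to be tested: *Isg20*, *Irf7*, *Oasl2*, *Rsad2*, *Tlr3*, *Mx1*, *Mx2* and *Gbp2*. *Mx1*, which encodes an antiviral GTPase, had between 5 and 21 counts per library. *Irf7*, the transcription factor that amplifies interferon production, had at most 6.

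By role, 3 of 5 sensors, 3 of 4 transcription factors, 8 of 17 antiviral effectors, 2 of 4 genes of the ISG15 and ubiquitin group, 3 of 3 genes of ADP-ribosylation and 3 of 4 antigen-processing genes were tested. Per kilobase of exon, the highest mean levels over the 10 libraries were those of *Ifitm2* (388 CPM per kb), *Ifitm3* (170 CPM per kb), *Ifitm1* (79.0 CPM per kb), *Bst2* (52.6 CPM per kb) and *Trim25* (41.6 CPM per kb). *Ifitm1*, *Ifitm2* and *Ifitm3* encode membrane proteins that block the entry of viruses, *Bst2* encodes tetherin, which holds budding virus at the cell surface, and *Trim25* encodes a ubiquitin ligase that activates RIG-I. The plot of levels by library is in CPM, not per kilobase. On that scale *Bst2* (8.76 to 123 CPM) overlapped other genes of the list, such as *Ddx58* (15.7 to 93.3 CPM).

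**Figure D1:**
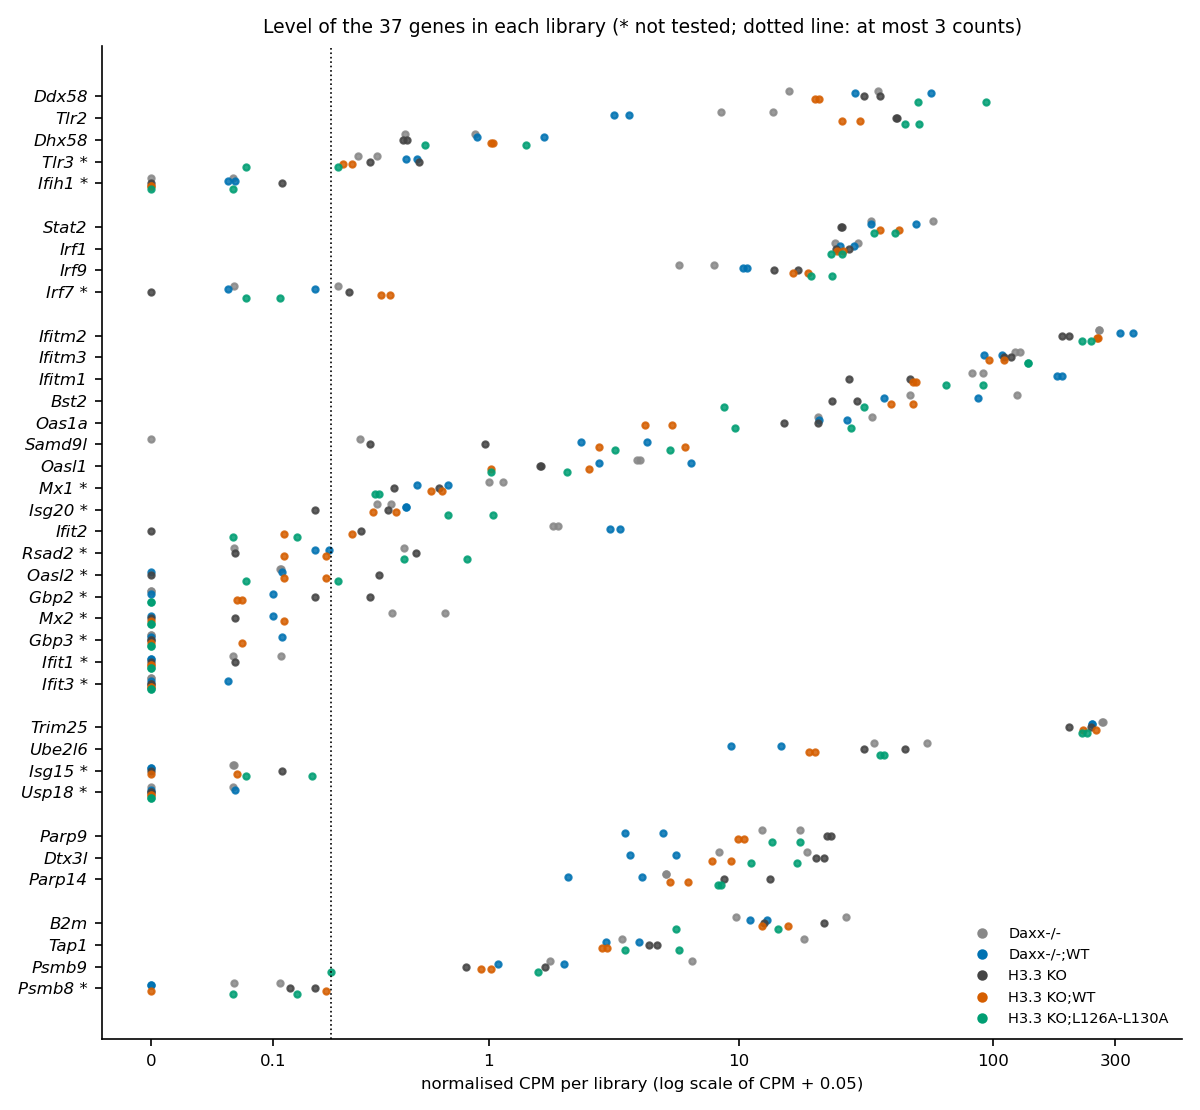
Normalised CPM of the 37 genes (rows, grouped by role) in each of the 10 libraries, on a log scale of CPM + 0.05, with 1 point per library coloured by line. Asterisks mark the 15 genes that were not tested, and the dotted line is the highest CPM worth of 3 counts, 0.204; *Isg15*, *Usp18*, *Ifit1*, *Ifit3*, *Ifih1*, *Gbp3* and *Psmb8* stay at or left of it, while *Ifitm2* and *Trim25* are above 180 CPM in every library.

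Response elements were found in the promoters of genes that were read and of genes at the limit of detection. RefSeq windows of GRCm38.p6, from 250 bases before to 50 bases after a transcription start, were found for 31 of the 37 genes. *Usp18*, *Dhx58*, *Mx1*, *Mx2*, *Parp9* and *Parp14* had none. The ISRE core was searched as GAAA, then 2 bases of any kind, then GAAA, on both strands, and it lay in a window of 14 of the 31 genes (45.2%), against 3.99% of the 27025 genes with a window. The GAS core, TTCNNNGAA, lay in 7 of 31 (22.6%), against 9.55% of all genes. Among genes with a window, the ISRE core was found for 7 of 19 tested genes and 7 of 12 genes that were not tested. The 250 bases upstream of the start are shown for a gene at or below 3 counts with the core, a gene read in all 10 libraries with the core and a gene that fell with DAXX without it, each read 5′ to 3′ on the strand of the gene, with ISRE cores in capitals. They are chr4:156200819-156201068 on the minus strand for *Isg15*, with 3 overlapping matches, chr5:120907526-120907775 on the minus strand for *Oas1a*, with 2 overlapping matches, and chr2:84798578-84798827 on the plus strand for *Ube2l6*, with none.
Isg15: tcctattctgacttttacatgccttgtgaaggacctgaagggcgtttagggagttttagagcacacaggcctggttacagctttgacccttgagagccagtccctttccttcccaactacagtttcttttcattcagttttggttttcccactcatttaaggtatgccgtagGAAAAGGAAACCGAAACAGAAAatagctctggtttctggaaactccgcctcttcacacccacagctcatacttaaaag
Oas1a: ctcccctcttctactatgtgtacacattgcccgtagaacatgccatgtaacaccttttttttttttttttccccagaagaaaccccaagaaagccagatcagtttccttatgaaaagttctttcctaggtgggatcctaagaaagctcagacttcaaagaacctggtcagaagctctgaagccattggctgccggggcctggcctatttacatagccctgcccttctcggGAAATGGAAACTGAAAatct
Ube2l6: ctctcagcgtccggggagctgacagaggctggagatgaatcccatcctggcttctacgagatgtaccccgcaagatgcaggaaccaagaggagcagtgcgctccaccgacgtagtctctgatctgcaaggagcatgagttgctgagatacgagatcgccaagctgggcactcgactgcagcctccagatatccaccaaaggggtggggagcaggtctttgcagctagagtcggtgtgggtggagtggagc
The windows of *Tlr2*, *Dtx3l*, *Ifitm1* and *Samd9l* also held no ISRE core in these letters, whereas those of *Ddx58* and *Bst2* held 1 and 2 matches. Of the 8 genes with a window that met either rule of change given below in any comparison, 3 held the core. A match is a description of sequence and was not tested for binding.

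Of the 22 tested genes, 3 changed with the DAXX transgene, and none passed the threshold by edgeR in the H3.3 lines. Differential expression (DE) was called by edgeR's quasi-likelihood test, where the p adjusted by Benjamini-Hochberg over all 13201 genes was under 0.05 and the change at least 2-fold. In *Daxx*-/-;WT against *Daxx*-/- mESCs, *Ube2l6*, *Parp9* and *Tlr2* were DE, all 3 lower with DAXX, against a background of 1.08% of all genes that were DE (0.78% lower and 0.295% higher). *Tlr2* and *Ube2l6* were put on the list by name, and the study had followed both as genes that depend on ATRX and DAXX, so their calls are not independent of how the list was made. *Samd9l* was also put on it by name, and the study had called it from these libraries with DAXX and with both H3.3 transgenes. No gene of the list was DE without either one of the *Daxx*-/-;WT libraries, or when the pair was fitted without the H3.3 lines. DESeq2 called 6 genes, the same 3 with *Dtx3l*, *Ifitm1* and *Samd9l*, and limma on log2(CPM + 1) called 4, the same 3 with *Samd9l*. Of all 13201 genes, DESeq2 called 534 and limma 231, where edgeR called 142. At an unadjusted p under 0.05 there were 9 of 22, 4 higher and 5 lower, where 21.6% of all genes passed (9.64% higher and 11.9% lower).

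In H3.3 KO;WT against H3.3 KO mESCs, 0 of 22 were DE by edgeR, where 0.205% of all genes were. At an unadjusted p under 0.05 there were 8 of 22, 2 higher and 6 lower (13.3% of all genes, 5.59% higher and 7.7% lower). DESeq2 called 3 genes there, *Oas1a*, *Parp9* and *Samd9l*, and limma called 0 (214 and 55 of all 13201 genes). In L126A-L130A against H3.3 KO mESCs, edgeR again called 0 (0.795% of all genes), with 3 at an unadjusted p under 0.05, all higher (16.8% of all genes, 6.71% higher and 10.1% lower), 2 by DESeq2 (*Ifitm1* and *Samd9l*) and 0 by limma. Over all genes, DESeq2 called 453 there and limma 180. L126A-L130A against WT H3.3 gave 0 by edgeR (0.5% of all genes), 7 at an unadjusted p under 0.05, all 7 higher with the mutant (12.4% of all genes, 6.03% higher and 6.33% lower), 2 by DESeq2 (*Ddx58* and *Oas1a*) and 0 by limma. Over all genes, DESeq2 called 328 in that comparison and limma 96. These 3 comparisons share libraries, so their values are given side by side and are not independent of each other.

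A looser description counted genes whose 2 libraries of one line both lay beyond both of the other, with at least a 2-fold ratio of mean CPM. With DAXX there were 6 such genes, *Tlr2*, *Ube2l6*, *Parp9* and *Dtx3l* lower and *Ifitm1* and *Samd9l* higher (9.14% of all genes tested, 2.26% higher and 6.89% lower). With WT H3.3 there were 5, *Parp9*, *Dtx3l* and *Oas1a* lower and *Samd9l* and *Dhx58* higher (6.87% of all genes, 2.55% higher and 4.33% lower). With L126A-L130A there were 4, all higher, *Samd9l*, *Ifitm1*, *Ddx58* and *Dhx58* (9.45% of all genes, 2.29% higher and 7.17% lower). Between L126A-L130A and WT H3.3 there were 3, *Ddx58* and *Oas1a* higher and *Bst2* lower with the mutant (8.14% of all genes, 2.64% higher and 5.5% lower). Within the list the log2 fold changes lay on both sides of 0, 8 above and 14 below with DAXX (from -1.89 to 4.53), where 48.9% of all genes tested were above. Above and below were 10 and 12 with WT H3.3, 12 and 10 with L126A-L130A, and 11 and 11 between the H3.3 transgenes. Of all genes, 52.0%, 53.8% and 51.1% were above 0 there. The median of the list was -0.16 on the log2 scale for DAXX, -0.09 for WT H3.3, 0.04 for L126A-L130A and 0.12 between the H3.3 transgenes, beside -0.01, 0.02, 0.04 and 0.01 over all genes tested. Some genes entered the test only through some lines: *Samd9l* was at 1 CPM or more in both libraries of each rescued line and of no KO line, and *Ifit2* only in both lines of the *Daxx* pair. *Dhx58* reached 1 CPM in 4 libraries, all of rescued lines, so that the direction of *Samd9l* and *Dhx58* against KO is not independent of the filter.

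**Figure D2:**
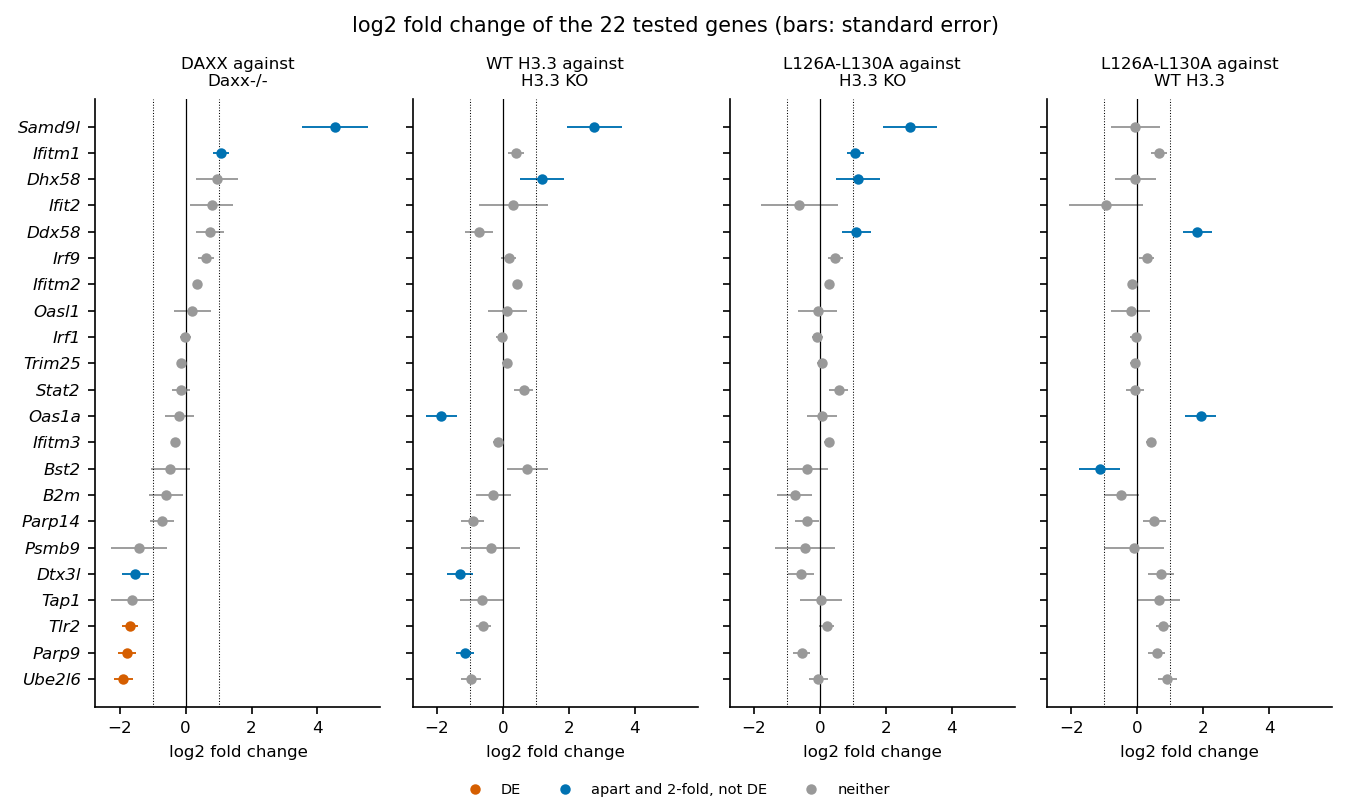
log2 fold change (horizontal axis) of the 22 tested genes in the 4 comparisons (panels), with standard errors from the edgeR fit as bars and dotted lines at 2-fold. Orange points are DE, blue points have non-overlapping libraries and a 2-fold ratio of means without being DE, and grey points are neither; *Ube2l6*, *Parp9* and *Tlr2* are the orange points, at -1.89, -1.79 and -1.68 with DAXX.

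Among the sensors, *Tlr2* fell with DAXX, and within the H3.3 lines *Ddx58* had its highest levels with L126A-L130A H3.3. *Tlr2* (chromosome 3, 83836272 to 83841767 on GRCm38) encodes a surface receptor for bacterial lipoproteins. It was read at 13.6 and 8.54 CPM in *Daxx*-/- mESCs and at 3.68 and 3.20 CPM with DAXX. Both rescued libraries lay below both KO libraries, and the log2 fold change was -1.68 (standard error 0.25, edgeR adjusted p = 0.0262). In the H3.3 lines *Tlr2* was at 41.3 and 42.0 CPM in KO mESCs, 29.8 and 25.5 CPM with WT H3.3 and 51.1 and 45.0 CPM with L126A-L130A. All 6 of these libraries were above all 4 of the *Daxx* pair, a difference that cannot be told apart from strain. WT H3.3 libraries were the lowest of the 6, at a log2 fold change of -0.59 from KO (standard error 0.22, edgeR adjusted p = 0.301). L126A-L130A was 0.80 above WT H3.3 on the log2 scale (standard error 0.22, edgeR adjusted p = 0.169) and 0.21 above KO (95% interval -0.29 to 0.71).

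*Ddx58* (chromosome 4, 40203773 to 40239828), the RIG-I gene, was at 93.3 and 50.5 CPM with L126A-L130A, 20.7 and 19.9 CPM with WT H3.3 and 35.7 and 31.0 CPM in H3.3 KO mESCs. The mutant libraries were the 2 highest and the WT H3.3 libraries the 2 lowest of the 6. L126A-L130A stood 1.82 above WT H3.3 on the log2 scale (standard error 0.44, edgeR adjusted p = 0.125) and 1.11 above KO (edgeR adjusted p = 0.241). In the *Daxx* pair *Ddx58* was at 35.1 and 15.7 CPM without and 56.6 and 28.7 CPM with DAXX, and these libraries overlapped. For *Ddx58*, replicate 1 was the higher of the pair in every line. *Dhx58* (chromosome 11, 100694884 to 100704271), which encodes LGP2, a relative of RIG-I without signalling domains, was near the limit of the test. It had 8 and 16 counts in *Daxx*-/- mESCs, 18 and 30 with DAXX, 8 and 7 in H3.3 KO mESCs, 16 and 18 with WT H3.3 and 8 and 26 with L126A-L130A. Counts this low did not separate the lines by the test, with the smallest edgeR adjusted p of the 4 comparisons at 0.399.

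Of the transcription factors, *Irf1* was level, *Stat2* and *Irf9* varied more, and none was DE by edgeR. *Irf1*, a factor that drives many of these genes on its own, lay between 23.02 and 29.4 CPM over the 10 libraries, with log2 fold changes from -0.08 to 0.00 in the 4 comparisons. *Stat2* lay between 25.2 and 58.1 CPM and *Irf9* between 5.80 and 23.3 CPM, so both were read in every library. *Irf9* was at 7.99 and 5.80 CPM in *Daxx*-/- mESCs and 10.8 and 10.4 CPM with DAXX, a difference of 0.62 on the log2 scale (standard error 0.24) without a call (edgeR adjusted p = 0.183). Its level was 13.8 and 17.1 CPM in H3.3 KO mESCs, 18.6 and 16.3 CPM with WT H3.3 and 23.3 and 19.3 CPM with L126A-L130A, whose libraries were the highest. *Stat2* was at 25.4 and 25.2 CPM in H3.3 KO mESCs, 35.8 and 42.5 CPM with WT H3.3 and 33.9 and 41.3 CPM with L126A-L130A. Both rescued lines were above KO, at log2 fold changes of 0.63 with WT H3.3 (standard error 0.28, edgeR adjusted p = 0.387) and 0.57 with L126A-L130A (standard error 0.28, edgeR adjusted p = 0.354).

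Among the antiviral effectors, *Samd9l* and *Ifitm1* had higher values in rescued lines, *Oas1a* had its lowest values with WT H3.3, and none of the 3 passed the edgeR test. *Samd9l* (chromosome 6, 3372257 to 3399572) encodes a cytoplasmic protein that restricts poxviruses and slows growth. It had 5 and 0 counts in *Daxx*-/- mESCs and 87 and 42 with DAXX, 17 and 5 in H3.3 KO mESCs, 96 and 48 with WT H3.3 and 79 and 59 with L126A-L130A. Every rescued library was above every KO library. The log2 fold change came to 4.53 for DAXX (95% interval 2.30 to 6.76, edgeR adjusted p = 0.0602), 2.78 with WT H3.3 (0.91 to 4.64, edgeR adjusted p = 0.223) and 2.73 with L126A-L130A (0.86 to 4.59, edgeR adjusted p = 0.151). DESeq2 called *Samd9l* in all 3 of these comparisons and limma only with DAXX. The study had already listed *Samd9l* as higher with each of these transgenes in these libraries. It was put on the list by name and entered the test only through rescued lines, so these values are not independent of how it was chosen. The value with DAXX rests on 5 counts in all in the KO line and became 8.87 without the *Daxx*-/- library that held them.

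*Ifitm1* (chromosome 7, 140967221 to 140969825) was at 82.3 and 90.9 CPM in *Daxx*-/- mESCs and 177 and 186 CPM with DAXX. Both rescued libraries were the highest of all 10, and the log2 fold change was 1.07 (standard error 0.25, edgeR adjusted p = 0.0675). In the H3.3 lines it was at 46.8 and 27.0 CPM in KO mESCs, 49.9 and 48.3 CPM with WT H3.3 and 65.1 and 90.8 CPM with L126A-L130A, for a log2 fold change from KO of 0.41 with WT H3.3 (edgeR adjusted p = 0.541) and 1.08 with L126A-L130A (edgeR adjusted p = 0.0801). DESeq2 called *Ifitm1* with DAXX and with L126A-L130A. Its neighbours *Ifitm2* and *Ifitm3* were high in all lines, between 185 and 352 CPM and between 91.5 and 137 CPM, and moved by at most 0.42 on the log2 scale in any comparison. The 3 genes are close copies, so the split of reads between them is uncertain.

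*Oas1a* (chromosome 5, 120896256 to 120907521) encodes a synthetase of 2-5A, the messenger that activates RNase L, and it too has near-identical copies beside it. It was at 15.05 and 20.5 CPM in H3.3 KO mESCs, 4.26 and 5.45 CPM with WT H3.3 and 27.5 and 9.67 CPM with L126A-L130A. Both WT H3.3 libraries were below all 8 others. The log2 fold change was -1.87 against KO (standard error 0.47, edgeR adjusted p = 0.175) and that of L126A-L130A against WT H3.3 was 1.93 (standard error 0.47, edgeR adjusted p = 0.125), of which the single mutant library at 27.5 CPM carried a large part: without it the value was 0.99. In the *Daxx* pair *Oas1a* was at 33.4 and 20.4 CPM without and 20.7 and 26.5 CPM with DAXX, which overlap.

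*Bst2* (chromosome 8, 71534255 to 71537456) varied as much within lines as between them. It was at 47.2 and 123 CPM in *Daxx*-/- mESCs, 37.3 and 87.0 CPM with DAXX, 23.3 and 29.1 CPM in H3.3 KO mESCs, 39.6 and 48.3 CPM with WT H3.3 and 8.76 and 31.1 CPM with L126A-L130A. Replicate 2 was the higher of the pair in all 5 lines. The mutant libraries were below the WT H3.3 libraries, at a log2 fold change of -1.13 with a standard error of 0.62 (edgeR adjusted p = 0.531), and the value was -0.50 without replicate 1 of the mutant.

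*Ifit2*, which encodes a protein that binds RNA and limits translation, was read in the *Daxx* pair and stayed near the limit of detection in the H3.3 lines. It had 33 and 35 counts in *Daxx*-/- mESCs and 68 and 55 with DAXX, but at most 5 in each of the 6 libraries of the H3.3 lines, which cannot be told apart from strain. Both DAXX libraries were above both *Daxx*-/- libraries, at a log2 fold change of 0.79 (95% interval -0.69 to 2.26, edgeR adjusted p = 0.501). *Mx2*, a relative of *Mx1* that GENCODE types as a polymorphic pseudogene, was not tested, at 7 and 12 counts in *Daxx*-/- mESCs, 2 and 0 with DAXX and at most 2 in each H3.3 library. *Oasl1*, a relative of *Oas1a* that restrains translation of *Irf7*, lay between 1.02 and 6.46 CPM and within 0.21 on the log2 scale in all 4 comparisons.

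In the ISG15 and ubiquitin group, the conjugating enzyme was well expressed while its substrate was not. *Ube2l6* (chromosome 2, 84798828 to 84810335) encodes UBCH8, the enzyme that passes ISG15 on to target proteins. It was at 54.7 and 33.9 CPM in *Daxx*-/- mESCs (44.3 ± 14.7, SD, n = 2) and 14.6 and 9.33 CPM with DAXX (12.0 ± 3.75, SD, n = 2). Both DAXX libraries were the lowest of all 10. Its log2 value of -1.89 against the KO line (standard error 0.30, edgeR adjusted p = 0.0265) was the largest fall among the 22 tested genes in any comparison. *Isg15* itself stayed at or below 3 counts in each of these libraries.

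In the H3.3 lines *Ube2l6* was at 30.9 and 44.9 CPM in KO mESCs, 18.8 and 20.0 CPM with WT H3.3 and 37.3 and 35.8 CPM with L126A-L130A. The WT H3.3 libraries were the 2 lowest of the 6, and the mutant libraries lay between the KO libraries. The log2 fold change from KO was -0.97 with WT H3.3 (standard error 0.29, edgeR adjusted p = 0.225) and -0.05 with L126A-L130A (95% interval -0.70 to 0.59). L126A-L130A was 0.91 above WT H3.3 on the log2 scale (standard error 0.29, edgeR adjusted p = 0.234). *Trim25* was between 198 and 270 CPM in all libraries and within 0.12 on the log2 scale in the 3 H3.3 comparisons.

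The ADP-ribosylation genes *Parp9* and *Dtx3l* lay lower with either WT transgene, and *Parp9* alone passed the test, with DAXX. PARP9 and the ubiquitin ligase DTX3L form a complex that modifies histones and supports interferon signalling, and PARP14 is a transferase that acts in the same pathway. *Parp9* (chromosome 16, 35938470 to 35972605) was at 17.4 and 12.3 CPM in *Daxx*-/- mESCs (14.8 ± 3.58, SD, n = 2) and 5.02 and 3.54 CPM with DAXX (4.28 ± 1.05, SD, n = 2). The lines did not overlap, and the log2 fold change was -1.79 (standard error 0.27, edgeR adjusted p = 0.0265). In the H3.3 lines it was at 22.2 and 23.01 CPM in KO mESCs, 10.5 and 9.91 CPM with WT H3.3 and 17.4 and 13.4 CPM with L126A-L130A. The 3 lines did not overlap, with KO highest, L126A-L130A next and WT H3.3 lowest, and the log2 fold change from KO was -1.15 for WT H3.3 (standard error 0.26, edgeR adjusted p = 0.155) and -0.55 for the mutant (standard error 0.26, edgeR adjusted p = 0.330).

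*Dtx3l* (chromosome 16, 35926511 to 35939151) stood in the same order in the H3.3 lines. It was at 18.6 and 8.32 CPM in *Daxx*-/- mESCs, 5.62 and 3.71 CPM with DAXX, 20.1 and 21.7 CPM in H3.3 KO mESCs, 9.28 and 7.82 CPM with WT H3.3 and 16.9 and 11.2 CPM with L126A-L130A. Rescued libraries were below their KO libraries in each case. On the log2 scale the change was -1.52 for DAXX (standard error 0.40, edgeR adjusted p = 0.0850), -1.29 for WT H3.3 (standard error 0.39, edgeR adjusted p = 0.230) and -0.57 for L126A-L130A (standard error 0.39, edgeR adjusted p = 0.500). *Parp9* and *Dtx3l* lie head to head on opposite strands and overlap by 682 bases in GENCODE. The library kit does not mark strand, so reads from the overlap cannot be assigned to either gene and the values are not independent.

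*Parp14* lies 54966 bases beyond *Dtx3l* and was at 5.16 and 5.14 CPM in *Daxx*-/- mESCs and 2.09 and 4.16 CPM with DAXX (log2 fold change -0.73, standard error 0.37, edgeR adjusted p = 0.285). In the H3.3 lines it was at 8.71 and 13.2 CPM in KO mESCs, 6.30 and 5.33 CPM with WT H3.3 and 8.29 and 8.47 CPM with L126A-L130A. Rescued libraries were below the KO libraries here too, with no call. Within 250 kb of these 3 genes, 7 other genes were tested and 0 were DE by edgeR in any comparison. At an unadjusted p under 0.05, 3 of the 7 were lower in *Daxx*-/-;WT, 4 in H3.3 KO;WT and 2 in H3.3 KO;L126A-L130A mESCs than in their KO line, where 11.9%, 7.7% and 10.1% of all genes were. Likewise 1 was higher with L126A-L130A than with WT H3.3 (6.03% of all genes). DESeq2 and limma also called 0 of the 7.

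**Figure D3:**
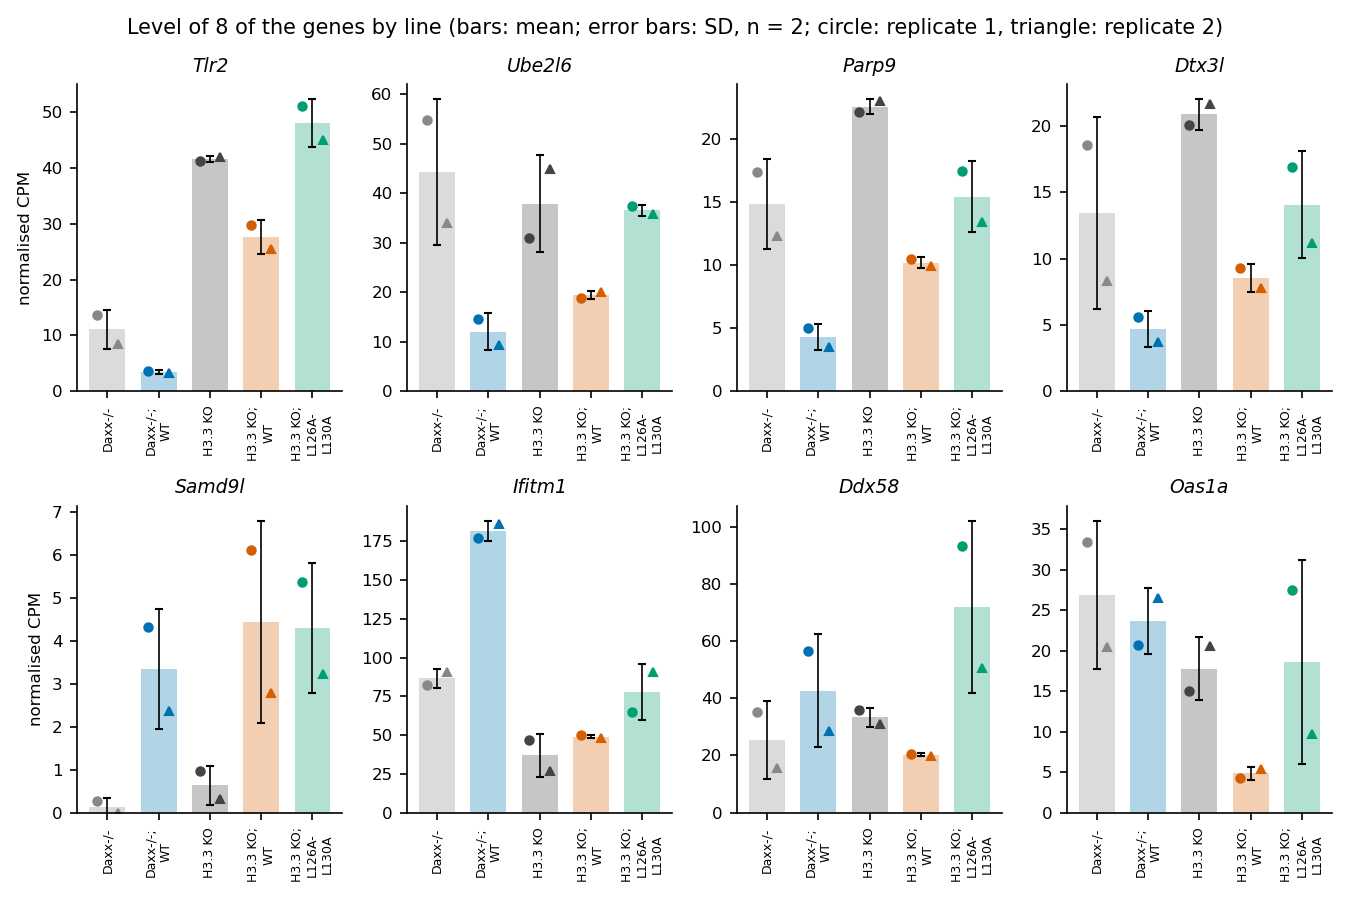
Normalised CPM (vertical axis, from 0) of 8 genes in the 5 lines, with bars for the mean, error bars for the SD (n = 2), a circle for replicate 1 and a triangle for replicate 2. *Tlr2*, *Ube2l6*, *Parp9* and *Dtx3l* are lower in *Daxx*-/-;WT than in *Daxx*-/- mESCs, *Samd9l* is at or below 0.962 CPM in every KO library and at or above 2.36 CPM in every rescued one, and *Ddx58* spans 50.5 to 93.3 CPM with L126A-L130A.

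No antigen-processing gene was DE by edgeR in any comparison, *Tap1* alone had an unadjusted p under 0.05, with DAXX, and the libraries of *Daxx*-/- mESCs differed widely from each other. *Tap1*, a subunit of the peptide transporter of the endoplasmic reticulum, was at 3.44 and 18.1 CPM in *Daxx*-/- mESCs and 2.99 and 4.05 CPM with DAXX. *Psmb9*, a catalytic subunit of the immunoproteasome, was at 1.78 and 6.51 CPM without and 1.09 and 2.02 CPM with DAXX. *B2m*, the light chain of MHC class I, was at 9.77 and 26.3 CPM without and 11.0 and 12.9 CPM with DAXX. In each case replicate 2 of *Daxx*-/- was the highest of all 10 libraries and replicate 1 lay within or below the range of the DAXX libraries. The log2 fold changes of -1.61, -1.41 and -0.59 had standard errors of 0.64, 0.84 and 0.53 (edgeR adjusted p = 0.192, 0.353 and 0.532). Of the alternatives run, *Tap1* was called only where replicate 1 of *Daxx*-/- was left out. That fit leaves its highest library as the KO line, and the calls over all genes rose in it too. In the H3.3 lines the genes lay between 2.86 and 5.79 CPM (*Tap1*), 0.204 and 1.70 CPM (*Psmb9*) and 5.64 and 21.6 CPM (*B2m*), with log2 fold changes between -0.77 and 0.67. *Tap1* was at 4.75 and 4.40 CPM in KO mESCs, 2.86 and 3.01 CPM with WT H3.3 and 3.53 and 5.79 CPM with L126A-L130A, so both WT H3.3 libraries were below the other 4. The difference was -0.64 from KO (standard error 0.65, edgeR adjusted p = 0.729) on the log2 scale, and the mutant was 0.67 above WT H3.3 (standard error 0.65, edgeR adjusted p = 0.790). *Psmb9* and *Tap1* are read from opposite strands and overlap by 212 bases, so their values are not independent either.

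**Figure D4:**
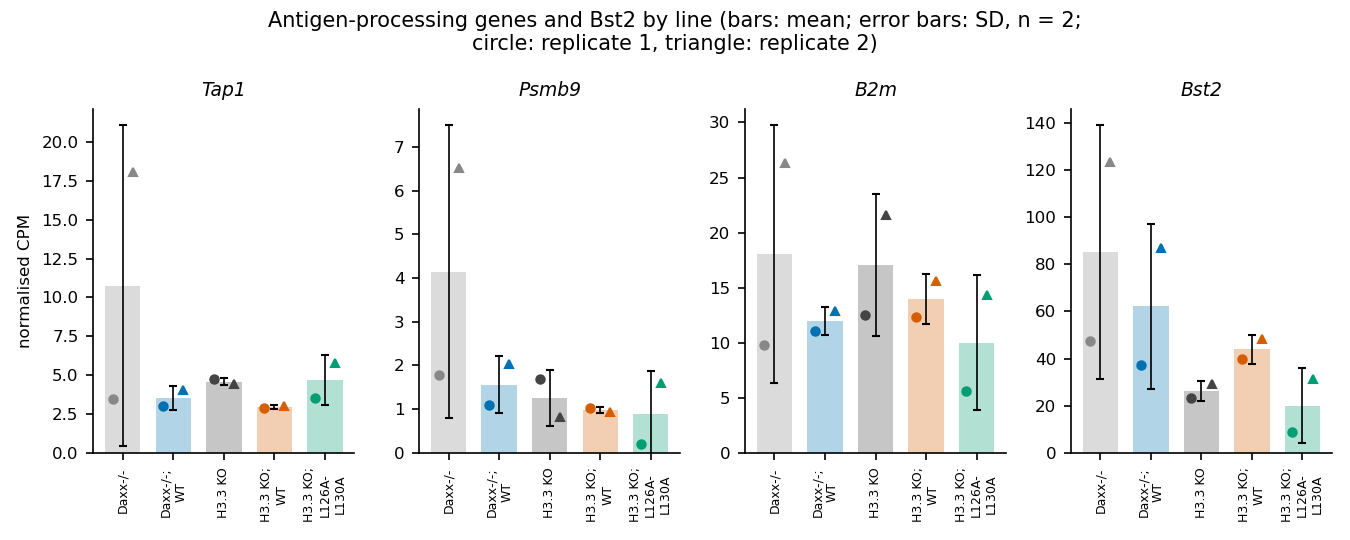
Normalised CPM (vertical axis, from 0) of *Tap1*, *Psmb9*, *B2m* and *Bst2* in the 5 lines, with bars for the mean, error bars for the SD (n = 2), a circle for replicate 1 and a triangle for replicate 2. The 2 *Daxx*-/- libraries lie far apart for all 4 genes (3.44 and 18.1 CPM for *Tap1*), and the triangle is above the circle in all 5 lines for *B2m* and *Bst2*.

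The effects of the DAXX and H3.3 transgenes were also set against each other within the same fit. The fall of *Tlr2* with DAXX differed from its change with L126A-L130A by -1.89 on the log2 scale (standard error 0.33, edgeR unadjusted p = 0.000273, adjusted p = 0.158) and from its change with WT H3.3 by -1.09 (standard error 0.33, edgeR adjusted p = 0.233). For *Ube2l6* the difference was -1.83 from L126A-L130A (standard error 0.41, edgeR adjusted p = 0.233) and -0.92 from WT H3.3 (standard error 0.41, edgeR adjusted p = 0.367). No gene of the list passed either contrast, against 0.0455% of all genes for WT H3.3 and 0.0227% for L126A-L130A, with 3 and 4 of the 22 at an unadjusted p under 0.05 (13.8% and 11% of all genes).

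The rest of the pathway was read from 5 further lists, of which 91 genes were tested. By edgeR, 0 of the 91 were DE with DAXX and 0 with WT H3.3. At an unadjusted p under 0.05, 6 were higher and 11 lower with DAXX (9.64% and 11.9% of all genes), and 8 were higher and 11 lower with WT H3.3 (5.59% and 7.7%). DESeq2 called 4 with DAXX (1 higher and 3 lower) and 2 lower with WT H3.3, and limma called 1 lower in each. Over all 13201 genes tested, DESeq2 called 534 and 214 in these comparisons, and limma 231 and 55. Of the interferon ligands in the table none exceeded 3 counts in any library, and *Ifnb1*, *Ifng* and the 4 *Ifna* genes were at 0. The receptor genes were read, with *Ifnar1* between 90.03 and 170 CPM. All 13 JAK-STAT genes, 28 of 34 genes of nucleic acid sensing and relay, 29 of 43 further interferon-stimulated genes and 15 of 16 genes of MHC class I and peptide loading were tested.

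In the comparisons with L126A-L130A, 1 gene of these lists was DE in each, *Parp12* against KO and *Nod1* against WT H3.3. At an unadjusted p under 0.05, 4 were higher and 13 lower against KO (6.71% and 10.1% of all genes), and 7 were higher and 11 lower against WT H3.3 (6.03% and 6.33%). DESeq2 called 5 lower against KO, and 3 higher and 3 lower against WT H3.3, while limma called 1 lower and 1 higher. Over all genes, DESeq2 called 453 and 328 in these comparisons, and limma 180 and 96. *Parp12*, which encodes an antiviral ADP-ribosyltransferase, was at 23.4 and 34.7 CPM in H3.3 KO mESCs, 8.01 and 9.39 CPM with WT H3.3 and 6.25 and 8.20 CPM with L126A-L130A. Both rescued lines were below KO, at log2 fold changes of -1.74 (standard error 0.27, edgeR adjusted p = 0.0531) and -2.003 (standard error 0.27, edgeR adjusted p = 0.0187). *Nod1*, which encodes a sensor of bacterial peptidoglycan, was at 13.2 and 7.87 CPM with L126A-L130A and 2.10 and 1.80 CPM with WT H3.3, 2.43 higher on the log2 scale with the mutant (standard error 0.40, edgeR adjusted p = 0.0439).

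Among markers of other cell types, the sums for fibroblasts and endothelium differed between the lines of a comparison. Fibroblast markers summed to between 27.5 and 40.3 CPM in *Daxx*-/- mESCs and between 12.3 and 17.4 CPM with DAXX, most of it *Thy1*, with 3 of 6 at or below 3 counts everywhere. Endothelial markers summed to between 295 and 334 CPM in H3.3 KO mESCs, 141 and 180 CPM with WT H3.3 and 105 and 129 CPM with L126A-L130A, nearly all of it *Pecam1*, with *Cdh5* at or below 3 counts everywhere. Leukocyte markers summed to 7.44 and 26.7 CPM in the *Daxx*-/- libraries and 15.9 CPM in both DAXX libraries, and primitive endoderm markers to at most 22.2 CPM in any library. Their part in the results was not tested.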

How the data were processed

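PolyA RNA-Seq libraries of 5 mESC lines, with 2 biological replicates each, were grouped by the line and genotype in their labels. The authors aligned reads with Bowtie and estimated expression with RSEM (mm9 in the processing notes, versions not given in the sources used here). The deposited table is named TPM but holds RSEM expected counts, 1 value per gene and library, since each library sums to a different total. Counts were rounded, and median-of-ratios factors (0.935 to 1.04) set the scale. All 10 libraries entered one edgeR (version 4.0.16, R version 4.3.3) quasi-likelihood fit, in which dispersion followed abundance (common value 0.0521, 5 residual degrees of freedom). Genes had to reach 1 CPM in 2 or more libraries. Standard errors were taken as the log2 fold change over the root of F, and 95% intervals follow from it. CPM are normalised by the same factors. In each line the replicates were further apart than counting noise allows, and no library repeats another.

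Members, lists, tests and named genes were chosen with earlier results of these data known. Values are printed by library for *Samd9l*, *Tlr2* and *Ube2l6* and for each gene that was DE, or lay apart and 2-fold, in any comparison. Genes of other lists were named if DE, and receptors and ligands after their values were seen, as were the other genes given by library. The contrasts between the DAXX and H3.3 effects were added after the data were seen. Positions and exon lengths come by symbol from GENCODE vM21 on GRCm38, not the build of the alignment. Alternatives covered scaling, filter, threshold, replicate block, fits of each comparison alone, DESeq2 (version 1.42.0), limma (version 3.58.1) and each library left out.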

Additional observations from a re-analysis of the deposited data

How the results depend on the processing

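Of 40 log2 fold changes (10 genes given by library, 4 comparisons), the 18 that were DE or apart and 2-fold kept their sign under each alternative, and 7 of the other 22, none of these 7 DE by edgeR, took the opposite sign under at least 1. *Oas1a* with L126A-L130A against KO went from 0.06 to -0.029 with library size alone, -0.0056 with the replicate block, -0.092 and -0.11 by the limma fits and between -0.87 and 0.63 with a library left out. *Samd9l* between the H3.3 transgenes went from -0.05 to 0.019 with the block, 0.00054 and 0.012 by the limma fits and between -0.51 and 0.62 with a library left out. With a library left out, *Oas1a* and *Bst2* with DAXX lay between -0.51 and 0.21 and between -1.20 and 0.39, *Bst2* and *Ube2l6* with L126A-L130A against KO between -1.58 and 0.26 and between -0.29 and 0.24, and *Dhx58* between the H3.3 transgenes between -0.91 and 0.46. The 3 genes called with DAXX (*Ube2l6*, *Parp9*, *Tlr2*) became 5 with no filter on low values, 6 by DESeq2 (with *Dtx3l*, *Ifitm1* and *Samd9l*) and 0 when the comparison was fitted alone. Of all genes, 142 were DE in the main fit, and 233, 534 and 1 in these settings. The 3 calls did not hold with a *Daxx*-/-;WT library left out, where the calls over all genes fell as well. A line left with 1 library was assumed to vary like the others. The 0 calls with WT H3.3 became 4 fitted alone and 3 by DESeq2, where the calls over all genes went from 27 to 358 and 214. Those with L126A-L130A became 1 with no filter and 2 by DESeq2 (from 105 to 203 and 453 over all genes). Those between the H3.3 transgenes became 2 by DESeq2 (from 66 to 328 over all genes). There *Oas1a* lay between 0.99 and 2.50 with a library left out. With a mean of at least 5 CPM, the genes apart and 2-fold went from 6 to 5 with DAXX, since *Samd9l* was then not tested. They went from 5 to 3 with WT H3.3 and from 4 to 2 with L126A-L130A, since *Samd9l* and *Dhx58* were not tested. The share of all genes under this filter is not given here. The cause of the other shifts was not tested.

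With a replicate block the calls were 6, 2, 2 and 1 in the 4 comparisons. It added *Dtx3l*, *Ifitm1* and *Samd9l* with DAXX, *Parp9* and *Samd9l* with WT H3.3, *Ifitm1* and *Samd9l* with L126A-L130A and *Ddx58* between the H3.3 transgenes. The labels do not say what a number marks, so the numbers were not taken as pairs. Deviations of same-numbered libraries correlated at 0.57, 0.28, 0.070 and 0.42 in the pairs of lines compared. Over all genes, the block moved the DE count from 142 to 618 with DAXX and from 27 to 106 with WT H3.3. The count went from 105 to 458 with L126A-L130A and from 66 to 245 between the H3.3 transgenes. DESeq2 called 534 with DAXX. The filter kept 15 of the 37 genes out of the test, and all 37 were tested without it. Limits of detection cover counting error only, whereas the 95% intervals come from the edgeR fit and include the spread between libraries.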
